A study of Mus musculus with 2 samples.

Results

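The genes described here are 30 mouse genes of the DNA damage response and of DNA repair. They were taken by symbol from the 43346 gene rows of the deposited gene tables, and all 30 were found. They fall into 5 groups: 12 genes of homologous recombination and crosslink repair, 5 of end joining, 2 of mismatch repair, 6 of base excision repair and 5 of the checkpoint. The study holds 2 libraries of one group: forebrain of healthy B6NCrl mice at embryonic day 11.5, both sexes together, with no allele or treatment named in the labels. Replicate 1 was a pool of 109 embryos and replicate 2 a separate pool of 88 embryos. Each library began with 1 cell-equivalent of total RNA longer than 200 nucleotides, with ERCC spike-in RNA added, and was amplified by a SmartSeq protocol. The assay is named for single cells, but the RNA came from pooled tissue, so each library is 1 bulk sample and not 1 cell. With 1 group there was no contrast to test and no p-value is given; differences are replicate 1 minus replicate 2 and measure the spread between these libraries.

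DNA repair protects dividing cells, and the embryonic forebrain is a tissue of rapidly dividing progenitors in which breaks arise at replication forks. Homologous recombination copies the sister chromatid to mend a double-strand break, whereas end joining seals the ends directly and is needed by newborn neurons, which have no sister chromatid. In mice, loss of Lig4 or Xrcc4 is known to cause widespread death of newborn neurons. Base excision repair replaces single damaged bases, mismatch repair corrects replication errors, and the checkpoint kinases stop the cell cycle while repair proceeds.

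The libraries held 28639678 and 28948074 expected counts in replicates 1 and 2, of which spike-ins took 4.35% and 3.35%. All 6 forebrain markers had at least 1 TPM (transcripts per 1e+06, a level per length) in both libraries, and the 4 midbrain and hindbrain markers had 0 counts in both. The 5 cell cycle markers summed to 1514 TPM in replicate 1 and 1357 TPM in replicate 2. Markers of other cells were present: 3 of 4 erythroid, 3 of 3 endothelial, 3 of 3 mesenchymal and 2 of 3 myeloid markers had at least 1 TPM in both libraries, while Ptprc was at 0 in both. The erythroid list summed to 16393 and 20679 TPM in replicates 1 and 2, the endothelial list to 90.6 and 96.0 TPM, the mesenchymal list to 321.09 and 249.95 TPM, and the myeloid list to 81.5 and 26.2 TPM. Which cells the repair transcripts came from was not tested, and in bulk tissue fewer cells of a type cannot be told apart from less RNA per cell.

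Most of the repair genes were expressed, and the base excision genes carried over 50% of their summed TPM, a level per length. At a threshold of 1 TPM, 20 of the 30 genes were detected in both libraries (66.7%), against 30.4% of 21474 protein-coding genes. Rad51c, Ogg1 and Atr reached the threshold in replicate 1 alone. Fanca, Fanci, Xrcc4, Lig4 and Pms2 reached it in replicate 2 alone, and Bard1 and Chek2 in neither. The 30 genes summed to 1232 TPM in replicate 1 and 1434 TPM in replicate 2, which is 1333 ± 143 TPM (SD, n = 2). Base excision repair took 56.0% of that sum in replicate 1 and 56.2% in replicate 2. Apex1 alone took 35.1% and 38.0% in replicates 1 and 2, and Parp1 took 12.8% and 12.9%. The other groups were smaller, and all but homologous recombination and crosslink repair were less even in summed TPM. The even sum of that group does not mean that its genes were even. Of its 10 genes with a mean of at least 10 TPM, 6 differed by 2-fold or more, against 51.3% of all genes at that level. Of these, 2 were higher and 4 were lower in replicate 1. Homologous recombination and crosslink repair summed to 250.32 and 233.54 TPM in replicates 1 and 2, the checkpoint genes to 203.83 and 142.47 TPM, end joining to 59.2 and 159.25 TPM, and mismatch repair to 28.36 and 92.55 TPM.

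**Figure D1:**
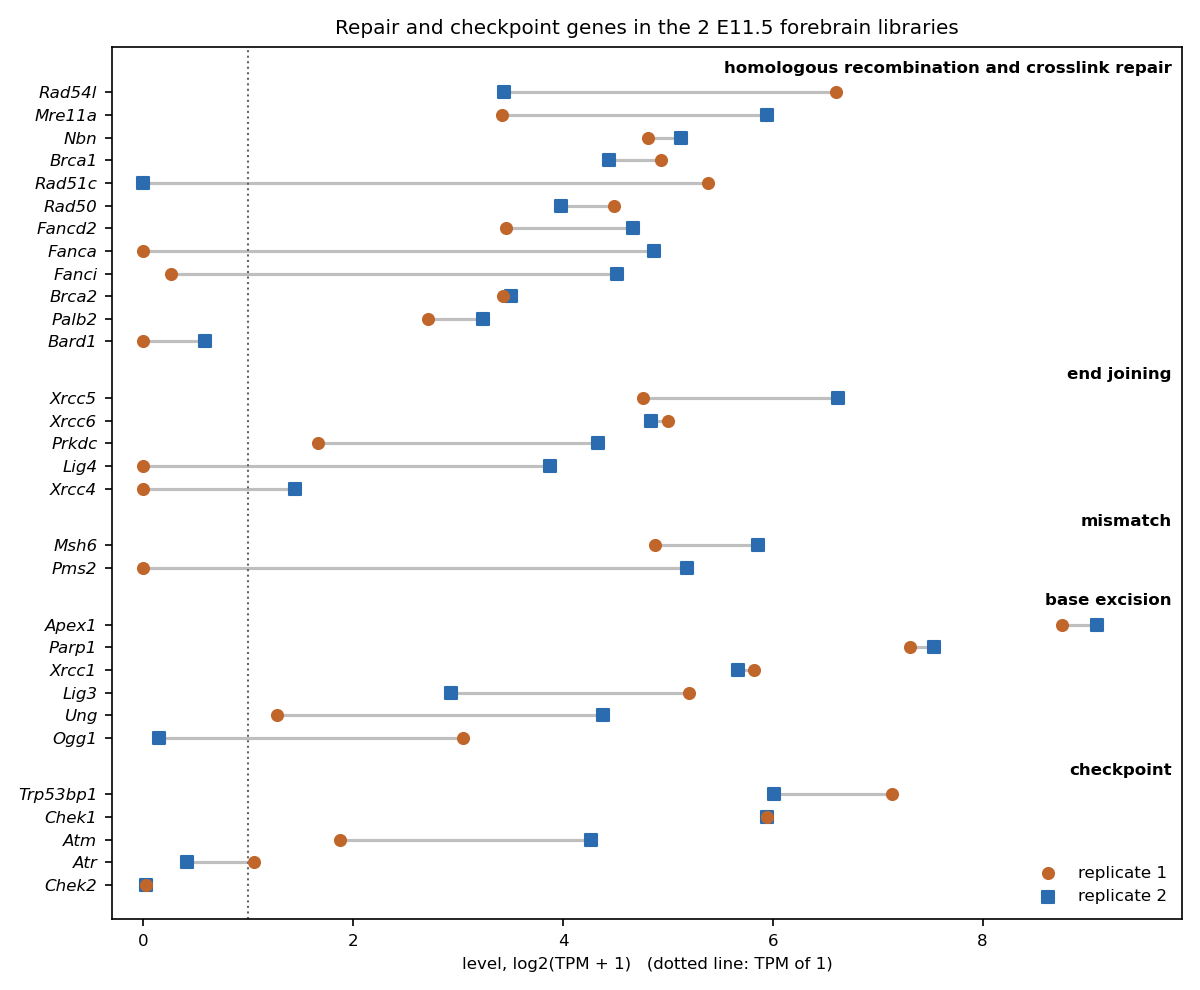
Level of each of the 30 genes in replicate 1 (circles) and replicate 2 (squares), as log2(TPM + 1), grouped by repair pathway; the line joins the 2 libraries and the dotted line marks 1 TPM. Apex1, Parp1, Xrcc1 and Chek1 lie high with their symbols close together, while Rad51c, Fanca, Fanci, Lig4 and Pms2 are high in one library and near 0 in the other.

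Many repair genes are known targets of E2F factors, which switch on S-phase genes. Promoters were therefore searched for the E2F words TTTCCCGC, TTTCGCGC, TTTGCCGC and TTTGGCGC, for the word TTTGAA (the cell cycle homology region, CHR) and for CCAAT, on both strands, in RefSeq windows of 250 bases before to 50 after the annotated start (build GRCm38.p6). The table held 29 promoters of 26 of the 30 genes; Rad50, Nbn, Fancd2 and Prkdc had no entry. An E2F word lay in promoters of 6 genes (Bard1, Brca2, Chek2, Msh6, Rad51c and Xrcc6), which is 23.1% of the 26 genes against 3.29% of protein-coding genes in the same table. CHR was found in 1 gene, Bard1 (3.85% against 18.5%), and CCAAT in 14 genes (53.8% against 42.3%). Median GC content was 60.0% in the repair promoters and 56.3% in protein-coding promoters. A match describes the letters only, and a missing match says nothing of the factor. The 4 promoters below are shown because the word sits upstream of the start in each, while the levels of the genes lie far apart: Xrcc6 averaged 29.3 TPM, Brca2 10.045 TPM, Bard1 0.25 TPM and Chek2 0.02 TPM. The E2F word, read on either strand, is in capitals, and each sequence runs 5′ to 3′ on the strand of its gene.
Xrcc6, chr15:82016119-82016418, plus strand: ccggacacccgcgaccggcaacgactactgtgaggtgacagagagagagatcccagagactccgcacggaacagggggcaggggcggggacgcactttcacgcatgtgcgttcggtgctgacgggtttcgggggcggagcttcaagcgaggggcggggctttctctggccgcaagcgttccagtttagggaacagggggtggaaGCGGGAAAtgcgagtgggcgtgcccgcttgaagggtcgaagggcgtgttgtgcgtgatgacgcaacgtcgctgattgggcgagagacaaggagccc
Brca2, chr5:150522371-150522670, plus strand: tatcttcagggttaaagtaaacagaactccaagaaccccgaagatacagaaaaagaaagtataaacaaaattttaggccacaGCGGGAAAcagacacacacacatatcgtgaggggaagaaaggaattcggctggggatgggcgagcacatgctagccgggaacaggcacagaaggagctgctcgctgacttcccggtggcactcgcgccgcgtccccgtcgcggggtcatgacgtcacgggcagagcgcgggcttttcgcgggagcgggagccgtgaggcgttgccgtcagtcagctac
Bard1, chr1:71102923-71103222, minus strand: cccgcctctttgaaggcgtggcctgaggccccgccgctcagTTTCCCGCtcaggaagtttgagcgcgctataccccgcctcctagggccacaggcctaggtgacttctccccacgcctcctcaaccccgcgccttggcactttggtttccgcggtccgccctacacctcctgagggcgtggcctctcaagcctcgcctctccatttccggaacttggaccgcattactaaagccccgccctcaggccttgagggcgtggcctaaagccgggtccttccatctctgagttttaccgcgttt
Chek2, chr5:110839733-110840032, plus strand: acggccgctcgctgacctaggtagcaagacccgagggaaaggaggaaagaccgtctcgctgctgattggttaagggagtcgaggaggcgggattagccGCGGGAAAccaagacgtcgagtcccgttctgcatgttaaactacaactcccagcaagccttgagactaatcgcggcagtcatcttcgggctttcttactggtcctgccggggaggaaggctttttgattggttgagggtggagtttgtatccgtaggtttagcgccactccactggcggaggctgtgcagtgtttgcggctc
Counted from the start, the word begins at position -46 in Xrcc6, -168 in Brca2, -209 in Bard1 and -152 in Chek2. So genes that share this promoter word ranged from 0.02 TPM in Chek2 to 42.8 TPM in Msh6, the mean of both libraries.

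Homologous recombination begins with the MRN complex of Mre11a (a nuclease), Rad50 (an ATPase that tethers DNA ends) and Nbn (which brings in the kinase ATM). Nbn had 27.04 TPM in replicate 1 and 33.91 TPM in replicate 2, and Rad50 had 21.41 and 14.83 TPM. Mre11a had 9.70 TPM in replicate 1 and 60.65 TPM in replicate 2, the widest gap of the 3 subunits. The ratio of Mre11a to Rad50 was 0.453 in replicate 1 and 4.09 in replicate 2. By gene TPM, Mre11a thus lay below Rad50 in replicate 1 and above it in replicate 2, while Nbn lay above Rad50 in both. The gap was smaller in counts than in TPM: Mre11a had 1092 and 2581 counts in replicates 1 and 2, a log2 difference of -1.19 in counts per 1e+06 gene counts (CPM) against -2.53 in log2(TPM + 1), and its effective length (the length by which the authors scaled the counts) was 5032 bases in replicate 1 and 1919 bases in replicate 2.

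Brca1, a ubiquitin ligase that promotes end resection, had 29.60 TPM in replicate 1 and 20.66 TPM in replicate 2. Bard1, its obligate partner, had 0 counts in replicate 1 and 62 counts (0.50 TPM) in replicate 2, so it was at least 20.2-fold lower in replicate 1 in CPM, set against the 3 counts that a 0 allows. Brca1 was thus well measured in both libraries while its partner stayed under 1 TPM in both. Brca2, a mediator of strand exchange, had 9.75 TPM in replicate 1 and 10.34 TPM in replicate 2. Its counts of 2319 and 2436 gave a CPM ratio of 0.972 (95% interval 0.918 to 1.03, counting error only), and the deposited TPM intervals of the libraries overlapped. Palb2, the bridge between BRCA1 and BRCA2, had 5.57 and 8.46 TPM in replicates 1 and 2, and the ratio of Brca2 to Palb2 was 1.75 and 1.22. This pair kept its order and came within 2-fold in both libraries by gene TPM. All of the Brca2 TPM was on a transcript with the full coding sequence. For Palb2, transcripts with at least 95% of the longest coding sequence held 0% in replicate 1 and 5.91% in replicate 2. A Palb2 transcript annotated for nonsense-mediated decay held 100% in replicate 1 and 61.6% in replicate 2.

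Rad54l, a DNA translocase that aids strand invasion, had 96.43 TPM in replicate 1 and 9.85 TPM in replicate 2, a difference of 3.17 in log2(TPM + 1). In replicate 1, 87.7% of its TPM was on transcripts with the full coding sequence (at least 95% of the longest), whereas in replicate 2 the share was 0% and Rad54l was carried by transcripts annotated as processed and non-coding. Exons of Lrrc41 on the opposite strand cover 15.4% of Rad54l exon bases, and Lrrc41 had 58.78 TPM in replicate 1 and 12.94 TPM in replicate 2; with the use of strand not given, reads of such pairs may not be told apart. Rad51c (ENSMUSG00000007646.9, chr11:87376645-87404954 in mm10), a recombination ATPase, had 1819 counts (40.62 TPM) in replicate 1 and 0 counts in replicate 2, so that in CPM it was higher in replicate 1 by at least 619-fold. Of that TPM, 97.9% was assigned to a transcript annotated for nonsense-mediated decay. Both genes were high in replicate 1, and neither had a full coding transcript as the main source in both libraries.

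The Fanconi anaemia genes repair DNA crosslinks. The 3 of the 30 genes with a Fanc symbol were lower in replicate 1 by 2-fold or more. Of all genes with a mean of at least 10 TPM, 26.6% were lower by that much. Not all genes of the pathway did so. Fancb had 21.73 TPM in replicate 1 and 0 TPM in replicate 2, and Fancg had 47.30 and 0 TPM. Fancl went the other way with 17.06 and 98.72 TPM in replicates 1 and 2, as did Fancc with 22.22 and 38.63 TPM. Fance, Fancf and Fancm stayed under 1 TPM in both libraries. These further Fanc genes are named here after their values were seen. Fancd2, which is ubiquitinated at the lesion, had 10 TPM in replicate 1 and 24.41 TPM in replicate 2, all on one full coding transcript in both. Fanci, with which FANCD2 forms a clamp, had 19.29 counts (0.20 TPM) in replicate 1 and 2025.69 counts (21.80 TPM) in replicate 2, a log2 difference of -4.25. The ratio of Fancd2 to Fanci was 50 in replicate 1 and 1.12 in replicate 2, so the partners stood level in one library alone. Fanca, a subunit of the core ligase complex, had 0 counts in replicate 1 and 710 counts (28.13 TPM) in replicate 2, at least 232-fold lower in replicate 1 in CPM. In replicate 2, 76.9% of its TPM was on a retained-intron transcript. Exons of Polg overlap 16.0% of Fanci exon bases and those of Zfp276 overlap 10.5% of Fanca, both on the opposite strand.

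None of the 5 end joining genes among the 30 was higher in replicate 1 by 2-fold in TPM, though Xrcc6 was in CPM. Of all genes with a mean of at least 10 TPM, 24.7% were higher by that much in TPM. Only 3 of the 5 reached that level, too few to set against this share. Outside the 30, Nhej1, an end joining cofactor named here after its values were seen, had 19.67 TPM in replicate 1 and 0 TPM in replicate 2. Xrcc5 and Xrcc6 encode the Ku heterodimer, which binds broken ends. Xrcc5 (ENSMUSG00000026187.8, chr1:72307421-72394952 in mm10) had 26.07 TPM in replicate 1 and 97.15 TPM in replicate 2, and its 1433 and 5292 counts on a single annotated transcript gave a CPM ratio of 0.277 (95% interval 0.261 to 0.293, counting error only). Xrcc6 had 30.96 TPM in replicate 1 and 27.54 TPM in replicate 2. The ratio of Xrcc5 to Xrcc6 was therefore 0.842 in replicate 1 and 3.53 in replicate 2. Xrcc6 looked even in TPM but not in counts: it had 1396 counts in replicate 1 and 567.27 in replicate 2, with an effective length of 2015 and 929 bases, and its CPM ratio was 2.51 (95% interval 2.28 to 2.78). All of its TPM in replicate 1 was on full coding transcripts, against 24.1% in replicate 2.

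Prkdc, the DNA-dependent kinase recruited by Ku, had 610 counts (2.17 TPM) in replicate 1 and 1350 counts (19.17 TPM) in replicate 2. In replicate 1 all of it lay on the full coding transcript, and in replicate 2 a retained-intron transcript took 97.8% of the TPM, with an effective length of 12548 bases in replicate 1 and 3175 bases in replicate 2. The log2 difference was -2.67 in TPM and -1.08 in CPM, so both scales put Prkdc lower in replicate 1. Lig4 (ENSMUSG00000049717.8, chr8:9969049-9977686 in mm10), the ligase that seals the ends, had 0 counts in replicate 1 and 1207 counts (13.67 TPM) in replicate 2, at least 394-fold lower in replicate 1 in CPM. Xrcc4, the scaffold that holds LIG4, also had 0 counts in replicate 1, and 55 counts (1.72 TPM) in replicate 2, at least 18.0-fold lower. The ligase and its scaffold were thus read in replicate 2 alone, where Lig4 stood 7.95 times above Xrcc4.

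Lig4 shares its promoter region with Abhd13, a gene of the abhydrolase family read from the other strand. Abhd13 had 1 count (0.01 TPM) in replicate 1 and 1283 counts (11.62 TPM) in replicate 2, so both genes of the pair were present in the same library. Their annotated starts lie 21 bases apart, with 20 bases between them on chromosome 8. The RefSeq window of Lig4 is shown because both genes start within it, 5′ to 3′ on the strand of Lig4, and the capitals are the 20 bases between the starts. None of the E2F words was found in it.
Lig4, chr8:9977631-9977930 (GRCm38.p6), minus strand: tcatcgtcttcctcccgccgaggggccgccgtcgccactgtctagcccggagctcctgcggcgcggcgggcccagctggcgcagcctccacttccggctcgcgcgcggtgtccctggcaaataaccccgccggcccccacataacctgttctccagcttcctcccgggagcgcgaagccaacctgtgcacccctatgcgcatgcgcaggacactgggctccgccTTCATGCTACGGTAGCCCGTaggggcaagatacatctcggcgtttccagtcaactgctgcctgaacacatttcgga

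**Figure D2:**
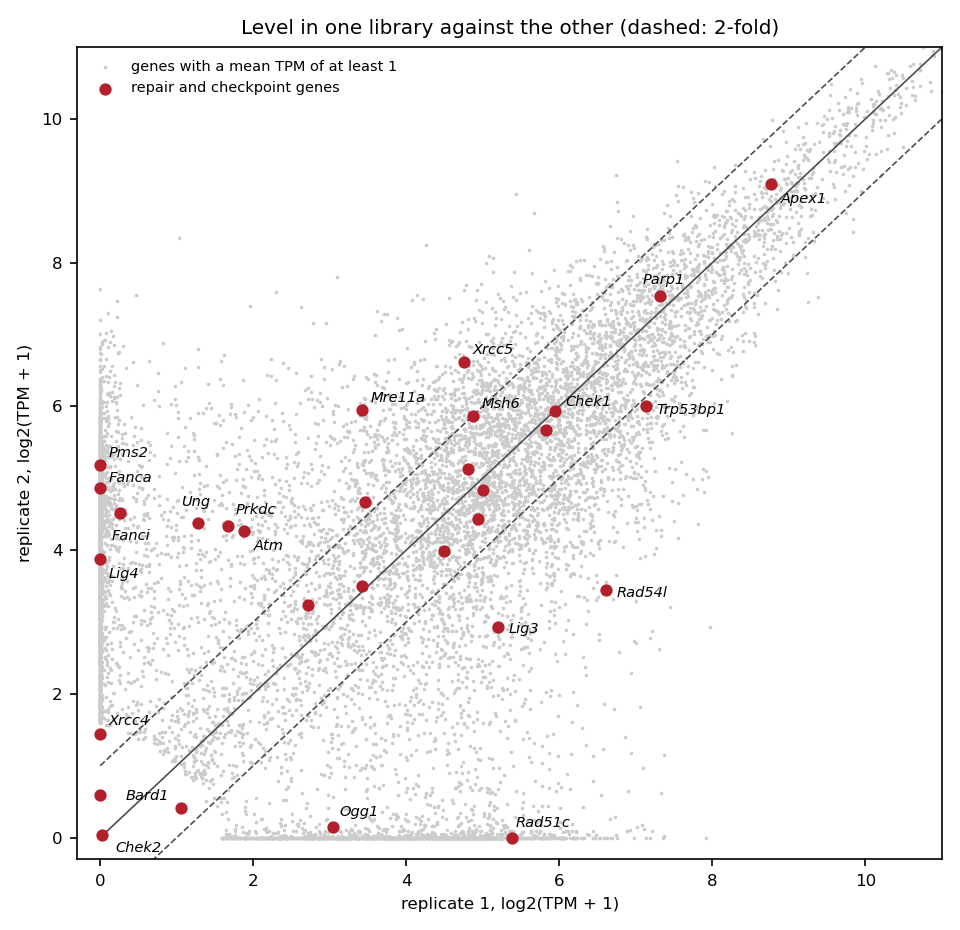
Level of the 30 genes (large points) and of all genes with a mean of at least 1 TPM (small points) in replicate 1 against replicate 2, as log2(TPM + 1), with dashed lines at a 2-fold difference; both axes end at 11, above the highest of the 30. Pms2, Fanca and Lig4 lie on the left edge among many other genes at 0 in replicate 1, Rad51c lies on the lower edge, and Apex1 and Parp1 lie near the diagonal.

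Of the mismatch repair genes, Msh6, a subunit of a mismatch recognition complex, had 28.36 TPM in replicate 1 and 57.15 TPM in replicate 2. Its log2 difference of -0.99 lay just inside 2-fold, on one annotated transcript with 2637 and 5267 counts. Pms2, the endonuclease subunit of the complex that acts next, had 0 counts in replicate 1 and 1831 counts (35.40 TPM) in replicate 2, at least 598-fold lower in replicate 1 in CPM. In replicate 2, processed non-coding transcripts held 70.6% of the Pms2 TPM. Msh6 was thus clear in both libraries and Pms2 in replicate 2 alone.

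Apex1, Parp1 and Xrcc1, the 3 base excision genes of highest mean TPM among the 30, differed little between the libraries. Apex1 (ENSMUSG00000035960.9, chr14:50924968-50927139 in mm10), which cuts the backbone at abasic sites, had 432.48 TPM in replicate 1 and 545.32 TPM in replicate 2 (488.9 ± 79.8 TPM, SD, n = 2). By mean TPM it ranked 266 among protein-coding genes, in the top 1.24%. Full coding transcripts held 85.8% of its TPM in replicate 1 and 82.2% in replicate 2. Exons of Pip4p1 on the opposite strand cover 61.7% of Apex1 exon bases, and Pip4p1 had 5.51 TPM in replicate 1 and 0.40 TPM in replicate 2. Parp1, which senses strand breaks and builds poly(ADP-ribose), had 157.86 TPM in replicate 1 and 184.24 TPM in replicate 2 (171 ± 18.7 TPM, SD, n = 2), in the top 4.16%. Xrcc1, the scaffold of single-strand break repair, had 55.53 TPM in replicate 1 and 49.76 TPM in replicate 2 (52.6 ± 4.08 TPM, SD, n = 2). These genes differed by 1.5-fold or less and kept the order Apex1, Parp1, Xrcc1 in both libraries.

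The remaining base excision genes were uneven. Lig3, the ligase bound by XRCC1, had 35.67 TPM in replicate 1 and 6.65 TPM in replicate 2, and the ratio of Lig3 to Xrcc1 was 0.642 and 0.134. Exons of Rffl overlap 25.1% of Lig3 exon bases on the opposite strand, and Rffl had 13.63 TPM in replicate 1 and 0 TPM in replicate 2. Ung, which removes uracil from DNA, had 52 counts (1.42 TPM) in replicate 1 and 829 counts (19.86 TPM) in replicate 2, a log2 difference of -3.11. Ogg1, which removes oxidised guanine, had 235 counts (7.24 TPM) in replicate 1 and 1 count (0.11 TPM) in replicate 2, which gives a ratio of CPM values of 240 (95% interval 42.7 to 9519). Of these 2 glycosylases, Ung was thus seen mainly in replicate 2 and Ogg1 mainly in replicate 1. Exons of Camk1 overlap 10.6% of Ogg1 exon bases on the opposite strand, and Camk1 had 34.56 TPM in replicate 1 and 0 TPM in replicate 2.

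Among the checkpoint genes, Trp53bp1 encodes 53BP1, which shields broken ends from resection. It had 139.45 TPM in replicate 1 and 63.42 TPM in replicate 2, the mean lying in the top 7.09% of protein-coding genes. Exons of Tubgcp4 overlap 15.0% of Trp53bp1 exon bases on the opposite strand, and Tubgcp4 had 33.65 TPM in replicate 1 and 68.81 TPM in replicate 2. Chek1, the kinase that acts downstream of ATR at stalled forks, had 60.61 TPM in replicate 1 and 60.45 TPM in replicate 2. Its counts were 1474 and 3097, so the log2 difference was 0.00 in TPM and -1.03 in CPM. The effective length of Chek1 was 1087 bases in replicate 1 and 2310 bases in replicate 2. Processed non-coding transcripts held 74.6% of its TPM in replicate 1 and 41.7% in replicate 2. The near-equal TPM values thus came with different leading transcripts.

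Atm, the apical kinase of the double-strand break response, had 592 counts (2.67 TPM) in replicate 1 and 2456 counts (18.25 TPM) in replicate 2. Atr, the kinase that answers to single-stranded DNA, had 1.08 TPM in replicate 1 and 0.33 TPM in replicate 2, with 51.53 and 59 counts. Chek2, the kinase downstream of ATM, had 1 count in each library, and no fold is given at that depth. By gene TPM, then, Chek1 was abundant in both libraries, Atm was lower in replicate 1, and Atr and Chek2 were low in both. On full coding transcripts alone, Chek1 had 1.18 TPM in replicate 1 and 31.81 TPM in replicate 2. Atm had 2.67 and 10.25 TPM on its full coding transcript, so Chek1 lay below Atm in replicate 1 on that measure. This order depends on where the cut for full coding is set. A Chek1 coding transcript left out by the cut, with 1326 of 1428 coding bases, had 8.21 TPM in replicate 1. It had 0 TPM in replicate 2. With it included, Chek1 lay above Atm in replicate 1.

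Large differences between the libraries were common in the repair genes and in genes at large. Of the 23 genes with a mean of at least 10 TPM, 13 differed by 2-fold or more, against 51.3% of 7680 genes at that level: 4 were higher in replicate 1 (24.7% of all genes) and 9 were lower in replicate 1 (26.6%). The 4 higher genes were Rad51c, Rad54l, Lig3 and Trp53bp1. The 9 lower genes were Atm, Fanca, Fancd2, Fanci, Mre11a, Pms2, Prkdc, Ung and Xrcc5. The other 7 of the 30 fell under that mean level, and some of the 23 passed it through one library alone, as Rad51c, Fanca, Fanci and Pms2 did. Those 4 were nearly empty in one library, with under 1% of their depth-scaled counts there, against 18.1% of all genes. The median difference of the 23 was -0.32 in log2(TPM + 1), against -0.02 over all genes of that level, and the median absolute difference was 1.21 against 1.04. A further 9 of the 23 lay within 1.5-fold in TPM, a count given without a share of all genes. They included Chek1 and Xrcc6, which differed by 2-fold or more in CPM.

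Over all genes, the share that differed by 2-fold was smaller at higher levels, and the repair genes are set beside it here. At 10 to 20 TPM, 7 of 9 repair genes differed by 2-fold, against 75.6% of all genes at that level. At 20 to 50 TPM it was 3 of 7 against 56.1%, at 50 to 100 TPM 2 of 4 against 42.9%, and from 100 TPM 1 of 3 against 19.5%. In CPM, which does not divide by length, 15 of the 23 differed by 2-fold, the same 13 with Chek1 and Xrcc6 added. The TPM and CPM differences lay 1 or more apart in 5 genes (Chek1, Fanci, Mre11a, Prkdc and Xrcc6) and had opposite signs in Chek1 and Rad50. No share of all genes is given beside these counts in CPM, so whether they are usual for these libraries was not tested. The deposited TPM intervals, whose level is not given in the sources used here, did not overlap for 20 of the 23 genes, against 89.9% of all genes at that level, and overlapped for Brca2, Chek1 and Xrcc6. Over the 30 genes, coding length and mean TPM had a Spearman rho of -0.13, a description over genes of the same libraries.

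The transcripts that carried a repair gene often differed between the libraries. Of 17 genes with at least 5 TPM in both libraries, 13 have several annotated transcripts, and in 6 of these the same transcript led in both libraries, against 65.6% of 4352 genes. The 6 were Brca1, Palb2, Fancd2, Nbn, Apex1 and Parp1. The 7 with a different leading transcript were Rad54l, Mre11a, Rad50, Xrcc6, Lig3, Chek1 and Trp53bp1. Full coding transcripts held over 50% of the TPM in 7 of the 13 genes in replicate 1 and in 7 in replicate 2, but in 4 in both. No share of all genes is given beside this count. The 4 genes of the 17 with a single annotated transcript (Brca2, Xrcc5, Msh6 and Xrcc1) had all of their TPM on a full coding transcript in both libraries. Brca1 had 36.2% of its TPM on full coding transcripts in replicate 1 and 27.9% in replicate 2, with 51.0% and 39.6% on a transcript annotated for nonsense-mediated decay. Rad50 had 5.18% of its TPM on full coding transcripts in replicate 1 and 90.4% in replicate 2. Trp53bp1 had 23.3% and 6.72% in replicates 1 and 2. For several of the 13 genes, the gene's TPM was thus not the level of its full coding messenger RNA.

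**Figure D3:**
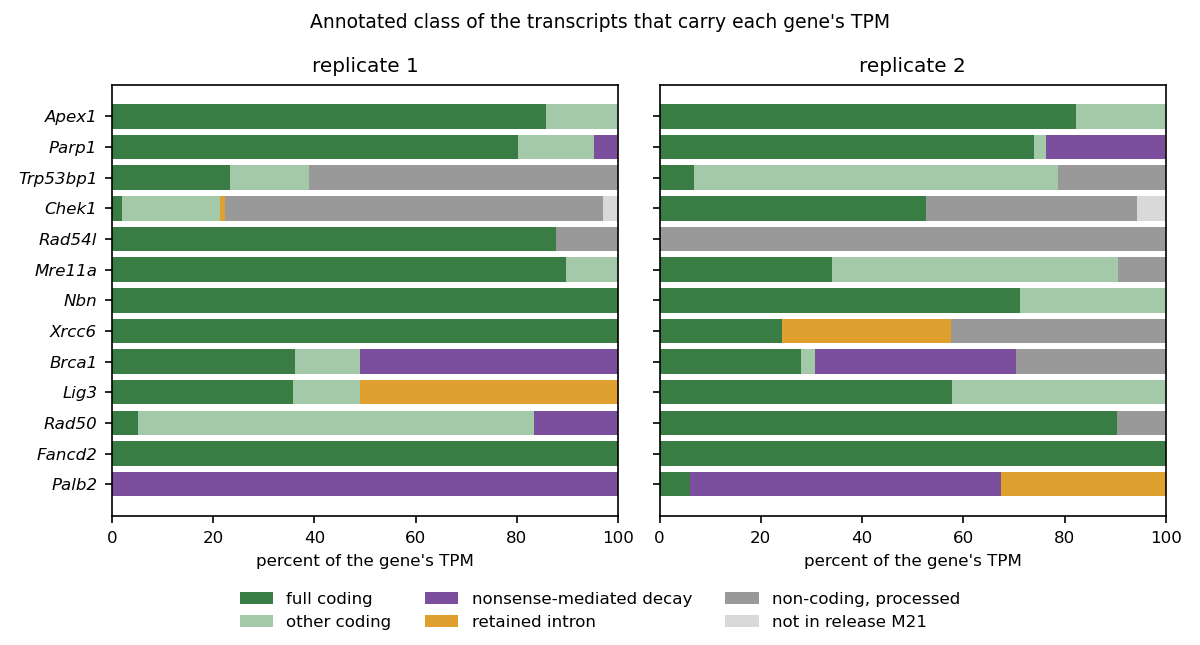
Percent of each gene's TPM by annotated transcript class in replicate 1 (left) and replicate 2 (right), for the 13 genes with several transcripts and at least 5 TPM in both libraries; full coding means at least 95% of the longest coding sequence. Apex1, Parp1, Nbn and Fancd2 are mostly full coding in both libraries, while Rad54l is 87.7% full coding in replicate 1 and 0% in replicate 2.

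With Lig4 among them, 14 of the 30 genes (46.7%) start within 1000 bases of a protein-coding gene on the opposite strand, against 10.9% of protein-coding genes. The neighbours did not simply follow the repair genes. Of the 14 neighbours, 9 were detected in both libraries, Hscb in replicate 1 alone, Abhd13 and Osgep in replicate 2 alone, and Tex14 and Pinlyp in neither. Hscb, which lies beside Chek2, had 896 counts (59.56 TPM) in replicate 1 and 0 counts in replicate 2, while Chek2 had 1 count in each. Apex1 and Osgep, a tRNA-modifying enzyme gene whose start is 75 bases away, parted in replicate 1. Osgep had 3 counts (0.12 TPM) in replicate 1 and 2780 counts (125.03 TPM) in replicate 2, while Apex1 was high in both libraries. Pms2 and Aimp2 showed the reverse, since Aimp2 had 211.13 TPM in replicate 1 and 238.99 TPM in replicate 2 while Pms2 was at 0 in replicate 1. Prkdc lies beside Mcm4, a subunit of the replicative helicase, which had 70.26 TPM in replicate 1 and 113.33 TPM in replicate 2. In 9 of 14 pairs the neighbour had the higher mean TPM. Of the 8 pairs in which both genes had a mean of at least 10 TPM, 4 had both genes higher in the same library.

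**Figure D4:**
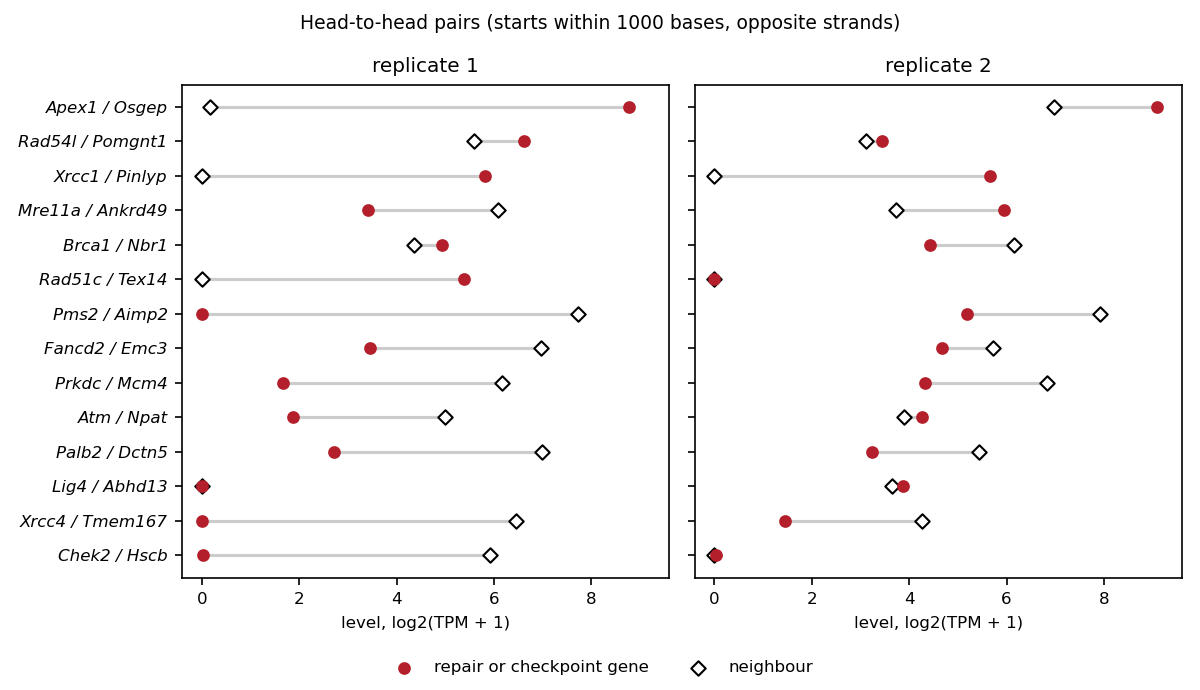
Level of the 14 repair genes (filled circles) and of their head-to-head protein-coding neighbours (open diamonds), as log2(TPM + 1), in replicate 1 (left) and replicate 2 (right). Lig4 and Abhd13 are both near 0 in replicate 1 and both present in replicate 2, whereas Osgep is near 0 in replicate 1 beside the most abundant gene, Apex1.

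The wider pathways gave 81 further genes, of which 50 were detected in both libraries (61.7%), 8 in replicate 1 alone, 12 in replicate 2 alone and 11 in neither. The other checkpoint genes were detected most often, 15 of 17 in both libraries. They were led by H2afx, the histone variant phosphorylated at breaks, with 420.07 and 292.10 TPM in replicates 1 and 2, and by Tipin and Timeless, a fork-protection pair. Tipin had 459.65 TPM in replicate 1 and 162.87 TPM in replicate 2, and Timeless had 149.39 and 103.14 TPM. In base excision repair 10 of 14 were detected in both libraries, with Tdg (a thymine glycosylase that also serves DNA demethylation) at 127.99 and 220.85 TPM in replicates 1 and 2. Lig1, the replicative ligase, had 164.40 and 118.21 TPM in replicates 1 and 2, and Fen1, the flap nuclease, had 129.05 and 39.70 TPM. Tdg was thus lower in replicate 1, and Lig1 and Fen1 were higher there.

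Both libraries held 4 of 6 further mismatch repair genes. Pcna, the sliding clamp, stood first with 406.99 TPM in replicate 1 and 327.62 TPM in replicate 2. Msh3, which recognises insertion and deletion loops, had 41.49 TPM in replicate 1 and 23.27 TPM in replicate 2. In recombination and crosslink repair 11 of 23 were detected in both. Exo1, a resection nuclease, had 140.60 TPM in replicate 1 and 56.40 TPM in replicate 2, and Mus81, a structure-specific nuclease subunit, had 53.58 and 72.02 TPM. End joining had 3 of 8 detected in both, which were Tdp2 (70.49 and 59.06 TPM in replicates 1 and 2), Polq (19.60 and 32.99 TPM) and Rif1 (26.11 and 21.54 TPM). Nucleotide excision repair, which none of the 30 genes represents, had 7 of 13, led by Ddb1 (177.25 and 138.06 TPM), Ercc1 (55.11 and 152.00 TPM) and Cetn2 (70.49 and 123.40 TPM). Of the 59 further genes with a mean of at least 10 TPM, 33 differed by 2-fold or more, 17 higher in replicate 1 and 16 lower, which stands beside the 51.3%, 24.7% and 26.6% of all genes given above.

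**Figure D5:**
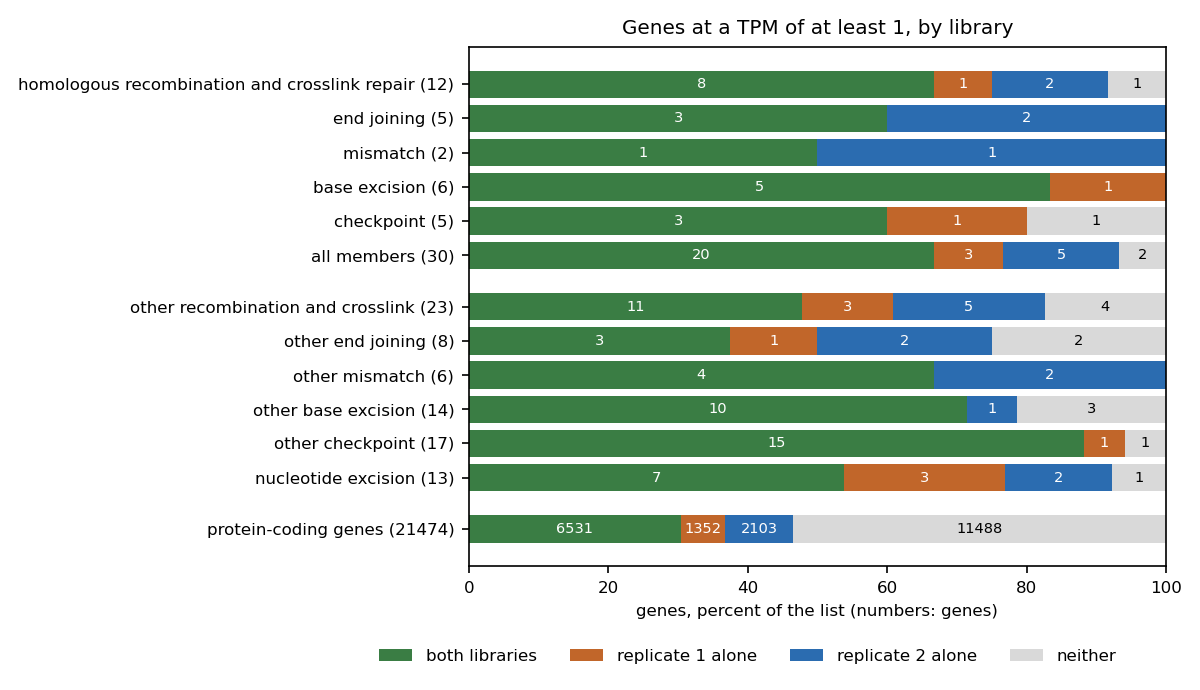
Percent of each list at or above 1 TPM in both libraries, in replicate 1 alone, in replicate 2 alone or in neither, with the number of genes on each bar, for the 5 groups of the 30 genes, for the further genes of each pathway and for all protein-coding genes. Base excision repair (5 of 6) and the other checkpoint genes (15 of 17) have the largest shares in both libraries, against 30.4% of protein-coding genes.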

How the data were processed

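Both libraries were treated as replicates of one group. Per the file headers, the deposited tables hold expected counts, which the authors estimated per gene and transcript and which need not be whole, and TPM. They also hold FPKM, which was not used. The deposited lengths and effective lengths are in bases; effective length was 99 bases shorter than length. The percent of a gene's TPM on each transcript is the authors' value. The limits of the TPM intervals, a score without a fixed range, are deposited values too. Text deposited with the tables names assembly mm10 and annotation M4; for the aligner, the quantifier and the use of strand the answer is not given in the sources used here.

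Symbols, coordinates and transcript classes came from GENCODE M21 on the same assembly, which matched 42462 of 43346 gene IDs (98.0%); promoter sequences came from RefSeq. Gene counts were 27395002 and 27977544 in replicates 1 and 2, where 3 counts are 0.110 and 0.107 CPM. CPM divided a gene's count by the total of gene counts without spike-ins. Differences are replicate 1 minus replicate 2 of log2(TPM + 1), a scale on which changes of low genes come out too small. Genes with a mean under 10 TPM were left out of counts of differences. CPM ratios carry 95% exact binomial intervals. Counting error is all that these intervals and floors cover, since amplified reads lacking molecular identifiers are not separate molecules. All 30 members are named; of each further list, the 3 genes of highest mean TPM are named, except some that are not reported here. The members and lists were chosen with earlier results of these data known. edgeR 4.0.16 and DESeq2 1.42.0 (R 4.3.3) served only as scaling alternatives. Scripts ran in Python 3.11.15 and were tested on simulated data.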

Additional observations from a re-analysis of the deposited data

How the results depend on the processing

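Of 23 alternatives tried over the 5 summary results, none turned a direction or moved a count by more than 1.5 times. Genes detected in both libraries numbered 20, with 17 at 5 TPM, 22 at 10 expected counts, and 23 and 25 when replicate 1 or replicate 2 alone was read. Genes differing by 2-fold numbered 13 of 23, with 14 at a pseudocount of 0.1 TPM, 15 in CPM under edgeR's TMM or DESeq2's size factors, and 16 of 30 with no filter. The summed level of 1333 TPM ranged between 1232 and 1440 TPM, and the median difference of -0.32 ranged between -0.39 and -0.29. The leading transcript was the same in 6 of 13 genes, in 7 of 16 at 1 TPM and in 5 of 9 at 10 TPM. Differences and leading transcripts need both libraries, so leaving one out gave no value for them. Low counts limit what can be said of Chek2, Atr, Xrcc4 and Bard1, whose counts were at most 62 in either library. The reason for the low counts was not tested.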
